A study of Mus musculus with 2 samples.

Results

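Osteoblasts build bone by secreting a collagen matrix and then letting calcium phosphate crystals form in it. The 10 genes described here, of the 32285 genes counted, cover that programme from its control to its products: the transcription factors Runx2 and Sp7, the phosphatase gene Alpl, the osteocalcin genes Bglap and Bglap2, the acidic matrix glycoprotein genes Ibsp, Spp1, Dmp1 and Mepe, and the endopeptidase gene Phex. They were listed as known osteoblast and mineralization genes, by a rule that uses no measured value, though with earlier results of these data known, and the question was how they were shared out among leptin receptor (LEPR) stromal cells, fibroblast/osteoblast-like cells and erythroid cells, and how far each was restricted to the few cells rich in Bglap.

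The cells came from the femur and tibia, bone and marrow together, of 3 untreated male INK-ATTAC mice aged 24 months, which carry a transgene that lets cells expressing p16 be killed by a drug not given here. They were depleted of lineage-positive blood cells (Lin-) and sorted as CD45- live cells before 10x Chromium 3′ single-cell RNA sequencing, and all 3 mice were pooled. The 2 count matrices, labelled replicates 1 and 2, shared 10928 of 11056 barcodes and so were taken to hold the same cells, and the counts were summed per barcode and treated as 1 sample. With 1 sample of 1 group no p-value can be given, and every interval below is a 95% interval for counting error only, taken, for levels and ratios, from the average count of both matrices so that the same molecules were not counted again; molecules were counted by their unique identifiers (UMIs).

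In adult marrow, stromal cells that express the leptin receptor and Cxcl12 include precursors of osteoblasts and of fat cells. RUNX2 is needed for commitment to the osteoblast lineage and SP7 (osterix) acts after it, ALPL removes the mineralization inhibitor pyrophosphate, and osteocalcin is made by mature osteoblasts. Osteopontin (Spp1), bone sialoprotein (Ibsp), DMP1 and MEPE bind mineral, and PHEX and DMP1, which are characteristic of osteocytes, take part in the control of phosphate.

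Of the barcodes, 9573 had at least 200 genes and at most 20% mitochondrial UMIs. Classes were set by genes outside the list of 10. LEPR stromal cells had a Lepr UMI and at least 5000 CPM of Cxcl12 (CPM is a gene's share of the UMIs, 10000 CPM being 1%) and numbered 1877. Fibroblast/osteoblast-like cells had less Cxcl12 and at least 5000 CPM of 6 matrix genes together (Col1a1, Col1a2, Col3a1, Dcn, Lum and Fn1) and numbered 115. Erythroid cells, with at least 3 of 10 erythroid genes, numbered 6650 in spite of the sort, and served as a class that should lack these genes. The median summed depth was 5188, 8499 and 28337.5 UMIs per cell in these classes. In the fibroblast/osteoblast-like class all 10 fibroblast markers and 5 of 8 osteoblast markers were found in at least 10% of cells, and so were 4 of 5 chondrocyte markers. The 5 osteoblast markers include Col1a1 and Col1a2, which set the class, while Ifitm5 was found in 10 cells, Col11a2 in 8 and Bglap3 in 6. Of the LEPR stromal markers 8 of 10, and of the erythroid markers 4 of 8, were also found in at least 10% of its cells.

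The chromosomal positions, in the GENCODE M21 annotation of the GRCm38 genome, fall into a pair of clusters and 4 single loci. Dmp1 (104202613 to 104214102), Ibsp (104299171 to 104311469), Mepe (104325329 to 104338611) and Spp1 (104435118 to 104441050) lie on the plus strand of chromosome 5 within 238438 bases. Bglap (88383501 to 88384464) and Bglap2 (88377736 to 88378699) lie on the minus strand of chromosome 3 within 6729 bases. Runx2 is on chromosome 17 (44495987 to 44814797), Sp7 on chromosome 15 (102356606 to 102367182), Alpl on chromosome 4 (137741733 to 137796384) and Phex on chromosome X (157162075 to 157415312), all on the minus strand.

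The promoters of 4 genes are shown for genes whose distribution over the classes differed. Each is 250 bases before and 50 after the RefSeq transcription start in GRCm38.p6, read 5′ to 3′ along the gene, with the core motif of RUNX factors (ACCACA, or TGTGGT on the other strand) in capitals.
Bglap (chr3:88384417-88384716, minus strand): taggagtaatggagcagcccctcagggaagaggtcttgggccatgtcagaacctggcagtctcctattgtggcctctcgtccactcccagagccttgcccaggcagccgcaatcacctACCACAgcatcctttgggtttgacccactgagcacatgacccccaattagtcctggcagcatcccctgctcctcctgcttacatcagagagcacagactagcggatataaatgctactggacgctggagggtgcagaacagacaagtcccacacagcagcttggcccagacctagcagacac
Spp1 (chr5:104434861-104435160, plus strand): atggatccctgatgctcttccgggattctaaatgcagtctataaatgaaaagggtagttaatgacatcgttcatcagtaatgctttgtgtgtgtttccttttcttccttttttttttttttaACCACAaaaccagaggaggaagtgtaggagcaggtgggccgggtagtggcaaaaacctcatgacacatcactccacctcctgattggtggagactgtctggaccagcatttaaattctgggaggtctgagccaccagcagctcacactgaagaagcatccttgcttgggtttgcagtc
Ibsp (chr5:104299037-104299336, plus strand): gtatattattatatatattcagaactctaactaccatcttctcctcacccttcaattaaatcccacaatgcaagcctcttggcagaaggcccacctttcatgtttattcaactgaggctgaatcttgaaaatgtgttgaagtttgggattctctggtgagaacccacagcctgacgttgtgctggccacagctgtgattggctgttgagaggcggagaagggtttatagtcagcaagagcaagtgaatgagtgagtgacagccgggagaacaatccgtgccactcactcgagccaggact
Runx2 (chr17:44814578-44814877, minus strand): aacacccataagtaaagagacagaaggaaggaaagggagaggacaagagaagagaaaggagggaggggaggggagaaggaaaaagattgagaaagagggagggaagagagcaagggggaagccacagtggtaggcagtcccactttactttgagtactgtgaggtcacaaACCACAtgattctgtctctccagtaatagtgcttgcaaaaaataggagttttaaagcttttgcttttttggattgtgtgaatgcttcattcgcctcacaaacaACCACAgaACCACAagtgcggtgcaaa
The motif began 132 bases before the start of Bglap and 128 before that of Spp1, Runx2 had 3 copies, 1 of them 80 bases before the start, and the Ibsp window had none. Of the 8 members with a promoter sequence at hand, Dmp1 (164 bases before the start) and Mepe (2 copies) also held it while Alpl and Phex did not, 5 in all, against 16.8% of 32851 promoter windows of the same length. Ibsp and Spp1, which lie in the same cluster on chromosome 5 and were both found in most LEPR stromal cells, thus differed in this motif.

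The 10 genes had different patterns over the classes. Bglap and Bglap2 were much higher in fibroblast/osteoblast-like than in LEPR stromal cells. Spp1, Alpl and Dmp1 were higher in fibroblast/osteoblast-like cells but also present in LEPR stromal cells. Ibsp and Sp7 showed no direction that held under the alternatives. Runx2 and Phex were higher in LEPR stromal cells, but the size of the Runx2 difference varied with thinning. Of the 9 members with at least 20 UMIs in both classes together, Mepe having fewer, 5 had at least 2-fold higher CPM in fibroblast/osteoblast-like than in LEPR stromal cells, where 9.76% of 12827 genes did, and 1 was at least 2-fold lower, against 19.9%. At least 10-fold higher were 3 of 9, against 2.43%. The median ratio over those genes was 0.861.

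**Figure D1:**
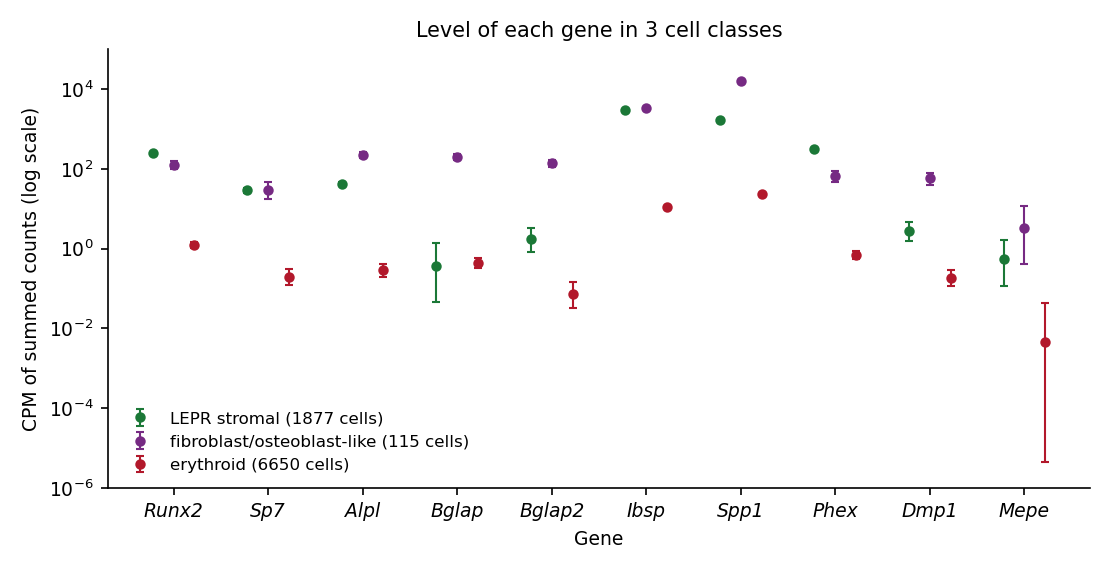
CPM of the summed counts (log scale) of each gene in LEPR stromal, fibroblast/osteoblast-like and erythroid cells, where bars are 95% Poisson intervals for counting error in 1 pooled sample. Bglap sits at 203 CPM in fibroblast/osteoblast-like cells and under 1 CPM in both other classes, while Ibsp sits at 2969 and 3453 CPM in the stromal classes.

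Among the transcription factors, Runx2 stood at 247 CPM (234 to 261) in LEPR stromal cells and 126 CPM (99.6 to 158) in fibroblast/osteoblast-like cells. This level was 1.96-fold lower in the latter, with an interval of 1.55 to 2.50. The size of this difference varied with thinning. In a random draw to 1000 UMIs per cell, Runx2 was at 249 CPM in LEPR stromal and 223 CPM in fibroblast/osteoblast-like cells. In a draw to 2000 UMIs it was at 254 and 130 CPM. Runx2 was found in 1093 of 1877 LEPR stromal cells (58.2%) and in 44 of 115 fibroblast/osteoblast-like cells (38.3%). Sp7 stood at 28.8 CPM (24.5 to 33.8) in LEPR stromal and 29.1 CPM (17.1 to 46.3) in fibroblast/osteoblast-like cells, a ratio of 1.01 whose interval, 0.578 to 1.66, leaves room for a difference either way. The Sp7 ratio was 0.442 with the matrix gene minimum at 10000 CPM and 2.08 after thinning each cell to 2000 UMIs. Another random draw to 2000 UMIs had Sp7 at 28.8 CPM in fibroblast/osteoblast-like cells, with 5 positive cells, and 28.2 CPM in LEPR stromal cells. Thinning used replicate 1 and left out cells with fewer UMIs, 582 of the 1877 LEPR stromal cells at 2000. Sp7 was seen in 222 LEPR stromal cells, 11.8% of the class, so that most Runx2-positive cells had no Sp7 molecule at this depth.

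Alpl was at 222 CPM (186 to 263) in fibroblast/osteoblast-like cells and at 42.1 CPM (36.8 to 48.0) in LEPR stromal cells, 5.27-fold higher in the former (4.22 to 6.55). The molecules were unevenly spread: 12 of the fibroblast/osteoblast-like cells held 77.5% of them, and 26 had any. Alpl was also counted in 4 of 36 endothelial cells, at 84.4 CPM (29.3 to 190).

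The osteocalcin genes differed most between the stromal classes. Fibroblast/osteoblast-like cells held 59.95% of all Bglap UMIs and 71.4% of all Bglap2 UMIs, erythroid cells 23.6% and 6.93%, and cells of no named class 15.5% and 13.4%. Bglap had 244 summed UMIs in 20 fibroblast/osteoblast-like cells (203 CPM) and 4 UMIs in 2 LEPR stromal cells (0.372 CPM), a ratio of 545 with an interval of 148 to 4552. The lower level is under the 0.558 CPM that a count of 0 allows in LEPR stromal cells, so the size of this ratio is not fixed by the data. Bglap2 stood at 137 CPM and 1.77 CPM, 77.6-fold apart (39.6 to 172). Of the 19 Bglap2 UMIs in LEPR stromal cells, 16 were in 1 cell, which also held 3 of the 4 Bglap UMIs and 49 Alpl UMIs. Without the cell with most Bglap2 UMIs in each class the ratio was 419. The LEPR stromal level left is under the same 0.558 CPM limit, so the size of this ratio is not fixed either. When the classes were set anew on 1 matrix, it was 635 for replicate 1 and 65.7 for replicate 2, while the same cells kept 147 against 1.70 CPM in the former and 128 against 1.83 CPM in the latter. With the Cxcl12 minimum at 2000 CPM, the Bglap ratio was 51.3, still the same direction.

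Bglap and Bglap2 can be told apart only in part. Their main transcripts are 440 and 471 bases long, and over the last 300 bases, where a 3′ library reads, they differ at 1 position (99.7% identity). The counting method assigns a read only where it fits 1 gene, so reads from this stretch can be lost or split between them. In fibroblast/osteoblast-like cells 19 of the 20 cells with Bglap also had Bglap2.

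Ibsp was widespread among LEPR stromal cells. It was found in 1517 LEPR stromal cells (80.8%) at 2969 CPM (2923 to 3015), and in only 32 fibroblast/osteoblast-like cells (27.8%) at 3453 CPM (3306 to 3605). The levels of the whole classes were thus within 1.16-fold (1.11 to 1.22) although the shares of cells differed widely. Thinned to 1000 UMIs per cell, an equal depth, the shares were 69.4% and 26.8%. The ratio fell to 0.708 with the matrix gene minimum at 10000 CPM, and to 0.974 without the top cell of each class, so no direction can be read from it. The most Ibsp-rich fibroblast/osteoblast-like cell alone held 948 of the 4154 UMIs of the class.

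Spp1 was likewise found in 1498 LEPR stromal cells (79.8%) at 1717 CPM (1682 to 1753). In fibroblast/osteoblast-like cells it reached 15807 CPM (15491 to 16128), 9.21-fold higher (8.94 to 9.47), although 80 of 115 cells had no Spp1 molecule. In 12 cells of the whole sample Spp1 made up at least 5% of all UMIs, and 17.6% in the highest. Of these, 9 were fibroblast/osteoblast-like, 3 were in no named class and 0 were LEPR stromal. The 9 held 82.4% of the Spp1 UMIs of their class. All 12 had Ibsp UMIs, while 6 had a Bglap UMI. With the matrix gene minimum at 10000 CPM, 3 of the 9 stayed in the class and the Spp1 ratio was 3.18.

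Phex ran the other way. It was found in 1027 LEPR stromal cells (54.7%) at 315 CPM (300 to 330) and in 16 fibroblast/osteoblast-like cells at 66.5 CPM (47.5 to 90.6), 4.73-fold lower (3.46 to 6.65). LEPR stromal cells held 91.2% of all Phex UMIs, the highest share of the 10 genes.

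Dmp1 and Mepe, made by osteocytes, were rare. Dmp1 had 191 UMIs in 32 cells, and 4 cells held 74.3% of them. The cell with most, 49 UMIs, was in no named class, the next, 44 UMIs, was fibroblast/osteoblast-like, and the third, 37 UMIs, was an erythroid-class barcode with 58743 UMIs that also held 2177 Spp1 and 148 Ibsp UMIs. Dmp1 was 20.9-fold higher in fibroblast/osteoblast-like than LEPR stromal cells (11.1 to 41.1), at 58.2 against 2.79 CPM, but 8.73-fold without the top cell of each class and 7.16-fold for replicate 1 and 24.9-fold for replicate 2 with the classes set anew on each matrix. In the same cells Dmp1 was at 55.7 against 3.22 CPM in replicate 1 and 60.6 against 2.38 CPM in replicate 2. All 6 fibroblast/osteoblast-like cells with Dmp1 also had Ibsp and Spp1. Mepe gave 13 summed UMIs in 6 cells, too few for a ratio. The fibroblast/osteoblast-like cell with 4 of them was the one with 44 Dmp1 UMIs, and it had at least 1 UMI of all 10 genes. Sost, the gene of the osteocyte product sclerostin, had 0 UMIs in all classes.

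The fibroblast/osteoblast-like class was split by these genes. In 45 of its 115 cells (39.1%) none of the 10 was detected, and in 28 (24.3%) at least 4 were, with 42 between. The 28 cells held 97.1% of the class's Sp7 UMIs, 94.3% of Bglap, 92.1% of Alpl, 86.9% of Ibsp, 86.5% of Spp1 and 78.9% of Runx2, but 23.8% of Phex. Since they were picked by these genes, this is a description. Genes outside the 10 also differed: Col1a1 was at 11317 CPM in the 28 cells, with 2037 UMIs in 1 of them, and 1218 CPM in the 45, Mmp13, a collagenase of late osteoblasts and hypertrophic chondrocytes, at 5242 and 6.96 CPM, and Ifitm5, an osteoblast-specific membrane protein gene, at 186 CPM in the 28 and 0 in the 45. The fibroblast genes Ly6a and Dcn ran the opposite way, at 14.8 and 2591 CPM in the 28 cells and 977 and 17976 CPM in the 45, but Lum did not, at 1746 and 1334 CPM. Col1a1, Dcn and Lum are among the 6 genes whose sum admitted a cell to the class, so a cell low in one of them had to be high in another. Col2a1, a cartilage collagen gene, was at 727 CPM in the 28 cells and 0 in the 45. The median depths were 8220.5 and 8831 UMIs, and the globin gene Hbb-bs was at 384 CPM in the 28 cells and 3735 CPM in the 45. The part of erythroid RNA in this split was not tested. In LEPR stromal cells the number of genes per cell peaked at 3 of the 10 (32.3% of cells), and 1.81% had none. Whether these cells hold groups was not tested.

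**Figure D2:**
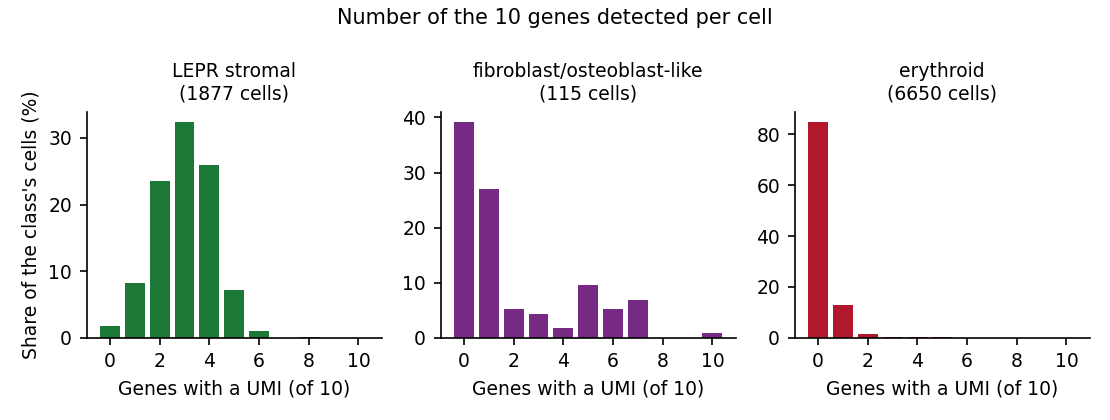
Share of cells (%) of each class by how many of the 10 genes had at least 1 UMI, with a separate vertical scale for each class. LEPR stromal cells centre on 3 genes, fibroblast/osteoblast-like cells pile up at 0 and 1 with another group at 5 to 7, and 84.8% of erythroid cells have none.

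Co-detection followed the same split. In fibroblast/osteoblast-like cells, 24 of the 26 cells with Alpl also had Ibsp, where independent detection would give 7.23. Runx2 and Alpl were together in 23 cells (9.95 by independence), and 16 of the 18 cells with Sp7 had Spp1 (5.48). Phex was the exception, together with Runx2 in 4 cells (6.12) and with Ibsp in 4 (4.45). In LEPR stromal cells the common genes lay close to independence, and Ibsp and Spp1 were together in 1245 cells, where 1211 were expected. Further from it were Sp7 with Alpl, 47 cells against 24.4, and Alpl with Ibsp, 199 of the 206 Alpl-positive cells against 166. Thinned to 1000 UMIs, Alpl with Ibsp was found in 62 of 68 cells against 47.2, but Sp7 with Alpl in 2 cells against 1.83. Thinned to 2000 UMIs, Sp7 with Alpl was found in 11 cells against 4.82. Across the 1877 cells, which share 1 library and differ in depth, Pearson's r of the log levels was 0.182 for Alpl with Ibsp and 0.0981 for Ibsp with Spp1.

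Within LEPR stromal cells, Ibsp was higher in cells with more Adipoq, the adiponectin gene that marks marrow stromal cells with a fat cell character. The cells were ordered by Adipoq CPM and cut into 4 bins of equal size. From the lowest bin to the highest, Ibsp stood at 2078, 2708, 3455 and 3473 CPM, and intervals of the outer bins did not overlap (1996 to 2163 and 3375 to 3573). Phex went from 275 to 365 CPM (246 to 307 and 334 to 398), and Spp1 was at 1617, 1503, 1671 and 2068 CPM. Runx2 differed little, at 255, 246, 241 and 249 CPM. Mmp13 stood at 402 CPM in the lowest bin and 158 CPM in the highest. Median depth (4296.5 UMIs in the lowest bin and 5589 in the highest), Cxcl12 (17815 and 26445 CPM) and the globin gene Hbb-bs (1102 and 540 CPM) differed between the bins too, and their part in these values was not tested.

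**Figure D3:**
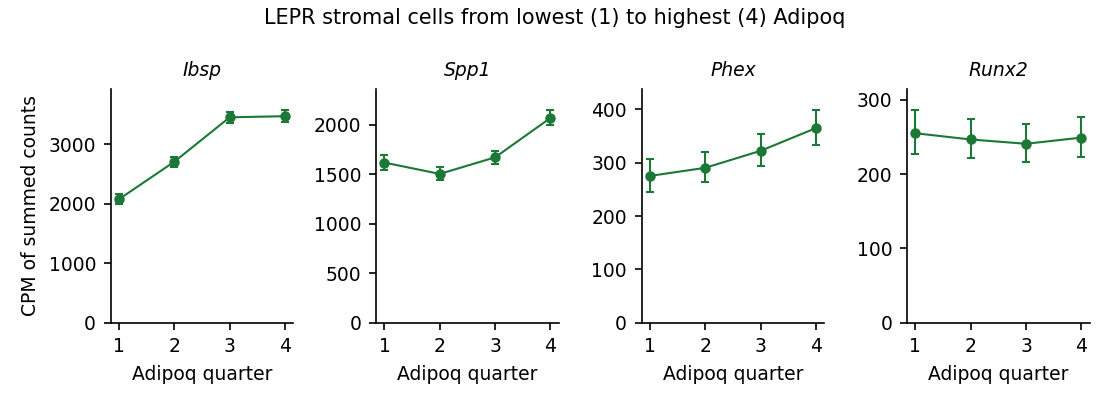
CPM of 4 genes in 4 bins of LEPR stromal cells ordered by Adipoq CPM (470, 469, 469 and 469 cells), with 95% Poisson intervals. Ibsp rises from 2078 to 3473 CPM, and Runx2 stays between 241 and 255 CPM.

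Erythroid cells, which should express none of these genes, gave the background. Of the 9 members with enough UMIs, 8 were at least 10-fold higher in LEPR stromal cells, against 23.5% of 15245 genes, and the same 8 were at least 2-fold higher, against 47.6%. The ratio was 447 (355 to 570) for Phex, 268 (252 to 284) for Ibsp, 203 (170 to 245) for Runx2, 147 for Alpl, 145 for Sp7, 72.5 (69.4 to 75.8) for Spp1, 23.9 (8.33 to 70.3) for Bglap2 and 15.1 (7.18 to 31.0) for Dmp1. Bglap was the exception, at 0.372 CPM in LEPR stromal and 0.445 CPM in erythroid cells (ratio 0.837, 0.0985 to 3.19). Bglap in LEPR stromal cells was thus not above its erythroid level, although most of it lay in the single cell with 16 Bglap2 and 49 Alpl UMIs, and 0.107% of LEPR stromal against 1.23% of erythroid cells had one, the latter at a higher depth. After thinning to 1000 UMIs, 0.721% of erythroid cells had Ibsp and 0.783% had Spp1, against 69.4% and 59.3% of LEPR stromal cells.

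The background was not alike for all members. Barcodes called doublets by Scrublet, 144 of the 6650 erythroid cells, held 68.4% of the erythroid Ibsp UMIs, 66.4% of Phex and 60.5% of Runx2, but 23.5% of Spp1, 9.38% of Bglap and 0% of Bglap2. Without them the LEPR stromal to erythroid ratio was 844 for Ibsp, 1325 for Phex and 510 for Runx2. A barcode not called a doublet held 42.6% of the erythroid Spp1 UMIs. Without the top cell of each class the Spp1 ratio was 124 and that of Dmp1 was 181. The latter is over an erythroid level of 0.0139 CPM, under the 0.0278 CPM that a count of 0 allows, so its size is not fixed. For Bglap2 leaving out the top cells lowered the ratio, as 1 cell held 16 of the 19 UMIs in LEPR stromal cells and another 8 of the 16 in erythroid cells. Bglap and Bglap2 were in a 1.48 to 1 proportion in fibroblast/osteoblast-like cells and 6 to 1 in erythroid cells, where 71 of 82 Bglap-positive cells had 1 UMI. Pmf1, whose gene ends 9678 bases upstream of Bglap on the same strand, was at 89.8 CPM in erythroid, 13.7 CPM in LEPR stromal and 8.31 CPM in fibroblast/osteoblast-like cells. Its part in the erythroid Bglap counts was not tested.

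Bglap-rich cells were those with at least 2 summed Bglap UMIs and at least 500 CPM. There were 18, 0.188% of kept cells, of which 14 were fibroblast/osteoblast-like, 4 were in no named class, having too little matrix gene RNA, and 0 were LEPR stromal or erythroid. At the edge of the rule, the lowest cell inside had 507 CPM, 18 cells had 2 or more UMIs but under 500 CPM, and 1 cell reached 621 CPM with 1 UMI. Their Bglap ranged from 2 to 94 UMIs with a median of 5, so the rule picked cells near the limit of detection. In the 14, all 8 osteoblast markers had UMIs, but Col1a1 and Col1a2 set the class, Bglap3 is a near copy of Bglap, Col11a2 was in 1 cell, and Ifitm5 and Smpd3 were in 3 cells each. Of the others, 0 of 5 endothelial and 0 of 5 pericyte markers had UMIs. Of the fibroblast markers 9 of 10 had UMIs, at a summed 12178 CPM, and of the LEPR stromal markers 8 of 10, at a summed 1232 CPM, with Adipoq and Il7 at 0. Chondrocyte markers were present too, 5 of 5, at a summed 4051 CPM.

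**Figure D4:**
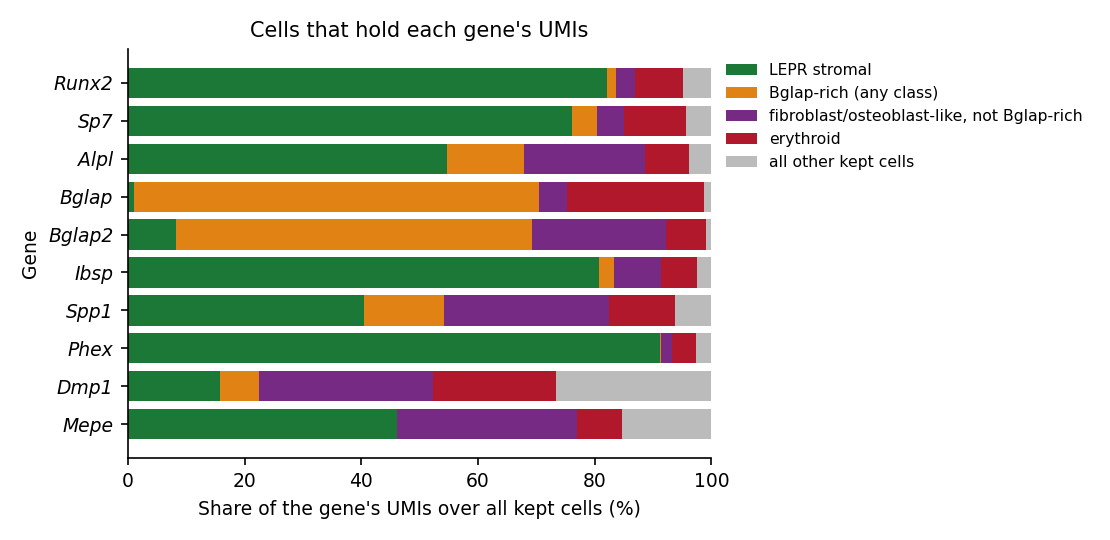
Share (%) of each gene's UMIs over all 9573 kept cells held by each group of cells, as stacked bars that sum to 100%. The 18 Bglap-rich cells hold most of Bglap and Bglap2, 13.8% of Spp1, and 0.135% of Phex.

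The 18 cells held 0.0615% of all UMIs, and the share of a gene's UMIs they held shows how far it was restricted to them. That share was 69.5% for Bglap, which defined the cells, and 61.0% for Bglap2. It was 13.8% for Spp1, 13.1% for Alpl, 6.81% for Dmp1, 4.18% for Sp7 and 2.44% for Ibsp, each above 2%, as 2.7% of 14172 genes were. It was 1.54% for Runx2 and 0.135% for Phex, and 0 of 13 UMIs for Mepe. The median gene had 0.0358%. Beside the osteocalcins, the genes with the highest shares were Col13a1 (44.2%), Cthrc1 (36.1%), Mmp16 (33.9%), Col2a1 (32.5%), Fat3 (32.1%), Col1a1 (28.4%), Col11a1 (27.6%), Tnn (24.6%), Tnmd (23.3%) and Ptgis (23.3%). Most were led by 1 cell: a single cell held 95 of the 121 Col2a1 and 2037 of the 2500 Col1a1 UMIs of the 18. Ptgis, the prostacyclin synthase gene, was instead found in 15 of the 18.

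Against the other 101 cells of their class, the 14 Bglap-rich cells had higher levels of most members, but of the 7 members with enough UMIs beside Bglap and Bglap2, 0 reached 10-fold, as 0.113% of 7058 genes did. At least 2-fold higher were 5 of 7, against 9.18% of genes, and 0 of 7 were at least 2-fold lower, against 19.7%. Sp7 was 7.32-fold higher (2.48 to 20.95), Alpl 4.72-fold (3.24 to 6.81), Spp1 4.09-fold (3.92 to 4.27), Runx2 3.54-fold (2.05 to 5.91) and Ibsp 2.48-fold (2.23 to 2.75). Phex was at 40.3 and 69.5 CPM, a ratio of 0.579 with an interval of 0.0925 to 1.996. Dmp1 was at 105 and 52.8 CPM (ratio 1.98, 0.703 to 4.74). For Dmp1 the rule decided the result, because the cell with 44 Dmp1 UMIs had 6 Bglap UMIs but stayed under 500 CPM. With a minimum of 1 Bglap UMI, of 5 Bglap UMIs, or of Bglap and Bglap2 together, the Dmp1 ratio was 24.5, 36.6 and 24.5. The Spp1 ratio was 1.16 with the matrix gene minimum at 10000 CPM. It was 2.60 and 3.67 with the cells chosen anew on replicate 1 and on replicate 2. After thinning to 1000 UMIs the Spp1 ratio was 6.83 and that of Alpl 1.53. Thinned values rest on few molecules, and in another random draw to 1000 UMIs Alpl was at 643 against 122 CPM.

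The Bglap-rich cells did not form a uniform group. Spp1 ranged from 0 to 2962 UMIs over the 18 cells with a median of 41.5, and 12 had any. Ibsp ranged from 0 to 269 UMIs, again with 12 positive cells, Alpl from 0 to 34 with 11 and Runx2 from 0 to 8 with 14. The cell with most Bglap, 94 UMIs, had 2037 Col1a1 UMIs but 0 Runx2. Another with 34 Bglap UMIs had 0 Ibsp, 0 Spp1 and 0 Alpl. Bglap-rich and Spp1-heavy cells overlapped in 4 cells, 4 of the 18 and 4 of the 12.

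**Figure D5:**
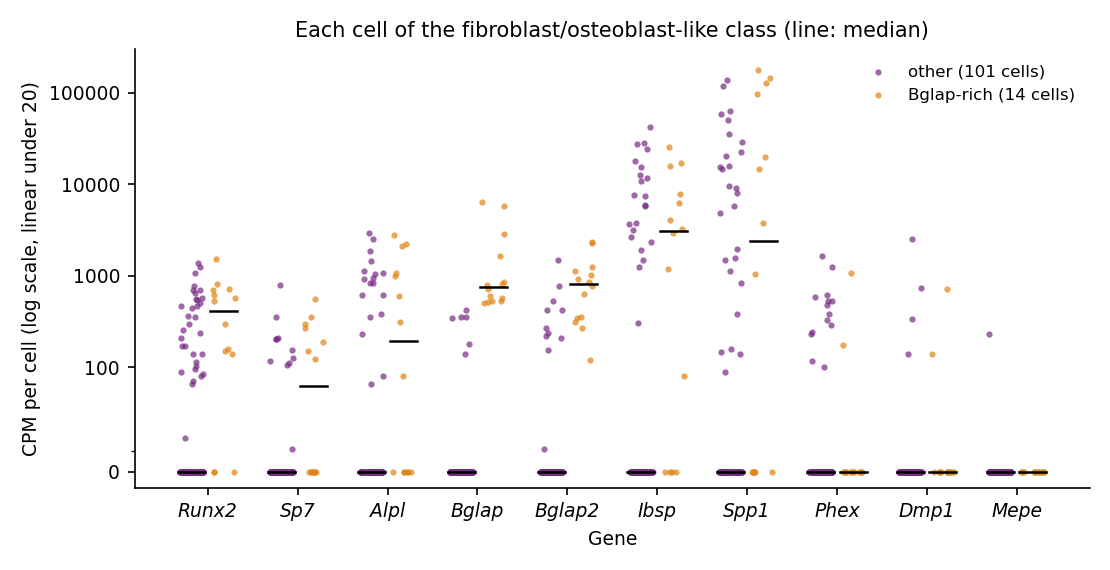
CPM of each gene in each cell of the fibroblast/osteoblast-like class (log scale, linear under 20), for the 14 Bglap-rich and the other 101 cells, with the median as a line. The medians of Runx2, Sp7, Alpl, Ibsp and Spp1 lie above 0 in Bglap-rich cells and at 0 in the others, yet the ranges overlap, and the highest Sp7, Alpl and Ibsp values are in other cells.

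The same rule was applied to each member, to be read beside the 0.188% of all kept cells that were Bglap-rich. Cells rich in Bglap2 numbered 15, of which 11 were Bglap-rich (73.3% of them and 61.1% of the Bglap-rich cells). Cells rich in Alpl numbered 55, with 8 Bglap-rich (14.5% and 44.4%). Cells rich in Ibsp numbered 1507, of which 1365 were LEPR stromal, and 11 were Bglap-rich (0.730% and 61.1%). Cells rich in Spp1 numbered 1325, of which 1205 were LEPR stromal, and 12 were Bglap-rich (0.906% and 66.7%). Cells rich in Runx2 numbered 368, with 7 Bglap-rich (1.90% and 38.9%). Cells rich in Sp7 numbered 15 and those rich in Dmp1 8, with 1 Bglap-rich each, and none were rich in Mepe. Cells rich in Phex numbered 480, of which 449 were LEPR stromal and 1 was Bglap-rich.

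Compared with LEPR stromal cells, the 14 Bglap-rich cells had higher levels of 7 of 9 members by at least 2-fold, against 10.5% of 12488 genes, and 5 by at least 10-fold, against 0.929%, the osteocalcins included. The osteocalcin values follow from the choice of cells. Dmp1 was 37.5-fold higher (12.5 to 99.9), but 12 of its 13 UMIs in the 14 cells were in 1 cell. Spp1 was higher 28.6-fold (27.4 to 29.7), Alpl 18.0-fold (12.8 to 24.7), Sp7 4.47-fold (1.90 to 9.03) and Ibsp 2.50-fold (2.28 to 2.74). Runx2 was at 354 and 247 CPM, 1.43-fold with an interval of 0.895 to 2.18 that includes no difference. Phex was 7.82-fold lower (2.44 to 47.1).

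Other genes of the programme were taken from a list of 49, of which 23 were at least 2-fold higher in fibroblast/osteoblast-like than in LEPR stromal cells and 2 lower, with 41 having enough UMIs, beside the 9.76% and 19.9% of all genes given above. Matrix genes went with the members that were higher in fibroblast/osteoblast-like than in LEPR stromal cells: 8 of the 10 with enough UMIs were at least 2-fold higher, among them Col1a1 (20.5-fold) and Col1a2 (3.65-fold), which were both used to set the class and so had to be high, Omd (7.60-fold), Sparc (3.97-fold) and Postn (146-fold). Of 8 such phosphate and mineral genes 7 were higher, including Smpd3 (24.0-fold), a sphingomyelinase gene needed for mineralization, Ifitm5 (22.5-fold) and the pyrophosphate genes Ank (6.74-fold) and Enpp1 (2.87-fold). Of 7 osteocyte genes 5 were higher, including Pdpn, Capg and Mmp13 (5.82-fold). Within the class, Pdpn was at 24.2 CPM in the 14 Bglap-rich and 56.5 CPM in the other 101 cells, and Capg at 88.6 and 158 CPM. Mmp13 was found in 23.5% of fibroblast/osteoblast-like and 26.8% of LEPR stromal cells, and 1 cell held 645 of its 1874 UMIs in the former. Of 9 signalling genes 2 were higher, and Pth1r, the parathyroid hormone receptor gene, was at 1.58-fold. Of 7 transcription factors 1 was higher, Mef2c (7.04-fold), and 2 were lower, Dlx6 (ratio 0.375, 0.0755 to 1.14) and Zfp467 (ratio 0.462, 0.182 to 0.977), while Dlx5 was at 1.28-fold, close to Sp7 in this respect. Between Bglap-rich and other cells of the class, 22 of the 37 genes of the list with enough UMIs were at least 2-fold higher and 3 lower, beside the 9.18% and 19.7% of all genes, and of the phosphate and mineral genes 1 of 6 was higher and 1 lower. Pth1r (4.71-fold), Mmp13 (4.60-fold) and Dlx5 (3.38-fold) were higher and the phosphate transporter gene Slc20a1 was at 8.05 against 104 CPM, which rest on 1 UMI and on 112 UMIs of which 70 were in 1 cell.

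Cd24a, the gene of the surface protein by which the study set apart an osteolineage population, was low in both stromal classes. It was at 96.7 CPM in the 14 Bglap-rich cells and 86.2 CPM in the other cells of the class (ratio 1.12, 0.391 to 2.63), where 1 cell held 44 of the 93 UMIs. It was found in 7 of the 14 (95% interval 23.0% to 77.0%) and in 27 of the 101 (26.7%, 18.4% to 36.5%). The level was 85.6 CPM in LEPR stromal cells. Among LEPR stromal cells 27.7% of those with Runx2 and 24.2% of those without had a Cd24a UMI, at median depths of 5908 and 4332 UMIs. Erythroid cells had 1165 CPM, and the part of their RNA in these levels was not tested.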

How the data were processed

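The authors made 10x Chromium 3′ libraries from the sorted cells and counted reads with Cell Ranger against mm10 (version 3.0.2 in the file header, another in the paper's methods). The deposited values are UMI counts, not normalized, 1 matrix of genes by barcodes per labelled replicate. Replicate 1 held 116827845 and replicate 2 held 120556381 UMIs, and they were summed per barcode because their barcodes were shared. Levels are CPM of counts summed over a class. Exact Poisson intervals (levels), exact conditional binomial intervals (ratios) and Clopper-Pearson intervals (shares of cells), all 95%, cover counting error only and were computed in Python 3.11.15 with scipy 1.17.1. Ratios needed at least 20 summed UMIs in both classes together, and a class at 0 entered at 3 counts as a bound. In summed UMIs, as in this minimum and the Bglap-rich rule, 1 molecule seen in both replicates counts as 2. At a median of 5188 UMIs per LEPR stromal cell, absence of a UMI is not absence of expression. Doublets were scored with Scrublet in scanpy 1.11.5 and kept. Besides the 10 members, genes were named from the list of 49, the gate and marker genes, and the 10 other genes with the largest share of UMIs in Bglap-rich cells, among genes with at least 50 UMIs. Pmf1, Bglap3, Cd24a and the cells described singly were chosen after their values were seen. Members, lists and rules were chosen with earlier results of these data known. The interval functions were tested on simulated counts. Gene positions came from GENCODE M21 and promoters from RefSeq, without entries used here for Bglap2 and Sp7.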

Additional observations from a re-analysis of the deposited data

Results flagged for a closer look

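Barcodes that failed the filters, 1483 with a median of 55.9% mitochondrial UMIs, were used in no comparison. Yet they carried several of the members at levels above those of erythroid cells. Ibsp was at 49.96 CPM (41.8 to 59.3) in 63 barcodes, Spp1 at 50.5 CPM (42.3 to 59.9) in 75, and Bglap at 3.24 CPM (1.44 to 6.26) in 8. The limit that a count of 0 allows was 1.14 CPM. Sp7 and Bglap2, at 0.572 CPM each, were under it, and Dmp1 and Mepe had 0 UMIs. Of these barcodes 3 met the Bglap-rich rule and 19 the LEPR stromal rule.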

How the results depend on the processing

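No paired analysis was possible because there is 1 group, whose replicates share their barcodes and were counted as 1 sample. The count of members at least 2-fold higher in fibroblast/osteoblast-like cells ranged from 4 to 6 over 13 alternatives, with 5 in each replicate alone (classes set anew on that matrix, here and below), and the count at least 10-fold higher in LEPR stromal than erythroid cells from 6 to 8, with 7 to 8 in the single replicates. The 0 members at least 10-fold higher in Bglap-rich cells became 1 after thinning to 2000 UMIs (Sp7), 2 with a minimum of 1 Bglap UMI, 1 with 5 Bglap UMIs and 2 with Bglap and Bglap2 together, where Dmp1 and Sp7 passed, Dmp1 alone at 5 UMIs; it stayed 0 in each replicate. The 5 members at least 2-fold higher there, a count added after seeing the data, became 3 with the matrix gene minimum at 10000 CPM. They became 3 after thinning to 1000 UMIs, where fewer cells and molecules were left, and 5 to 6 in the single replicates. Counts after thinning are from 1 random draw and can differ in another. Bglap-rich cells numbered 13 to 15 in the single replicates and 111 with a minimum of 1 Bglap UMI. Of 331 ratios of single members under alternatives, 251 lay inside the interval of the value given above, 80 did not, and 0 of those at least 2-fold apart changed direction. Leaving out the top cell of each gene was an alternative added after seeing the data. Where no cause is named, the cause was not tested. With 18 Bglap-rich cells, statements on them rest on few molecules.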
